A study of Mus musculus with 6 samples.

Results

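The genes that write and oxidize DNA methylation were compared between germinal center (GC) and resting, here called naive, B cells that had been sorted from the Peyer's patches of mice. The 7 genes were chosen by name, Dnmt1, Uhrf1, Dnmt3a, Dnmt3b, Tet1, Tet2 and Tet3, and all 7 were found by their Ensembl identifiers among the 39179 genes of the deposited table. Cells came from WT C57BL/6 female littermates aged 12 wk, without any engineered allele or treatment. GC B cells were sorted as Fas+GL7+ and naive B cells as Fas-GL7- cells of the B lineage, and each population was measured by RNA-Seq in 3 biological replicates, each of which was a pool of 5 mice. The sort defines the populations, so that single mice and stages within the GC cannot be resolved.

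DNA methylation in mammals is found mainly on cytosines that are followed by guanine (CpG). DNMT1, guided to newly replicated DNA by UHRF1, copies the methylation of the old strand onto the new strand, whereas DNMT3A and DNMT3B place methylation on sites that had none. TET1, TET2 and TET3 are dioxygenases that oxidize methylcytosine, from which the unmethylated base can be regained by further copying without maintenance or by base excision repair. In B cells these enzymes are known for their part in the GC reaction, and TET2 and DNMT3A are recurrently mutated in blood cancers.

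Maintenance and de novo genes went in opposite directions. Dnmt1 and Uhrf1 rose in GC B cells, by 6.37 and 36.7 times in mean TPM, while Tet2, Dnmt3b and Dnmt3a were higher in naive B cells, by 4.82, 2.97 and 1.42 times. Tet3 did not pass the test, and Tet1 was near the limit of detection in both populations. The difference of Dnmt3a lost its call in several alternative fits, which are given beside its values.

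TPM is a transcript level scaled for transcript length and for the total of each pool, computed here from the deposited FPKM, so that levels of different genes can be set side by side. Tests were made with limma across 12785 genes that reached at least 1 TPM in at least 3 pools, on log2(TPM + 1), with Benjamini-Hochberg adjustment over all of them and a threshold of 0.05. The added 1 makes a log2 fold change smaller than the ratio of the TPM means for weakly expressed genes. Of these genes, 65.6% passed the threshold, 35.5% with the higher level in GC and 30.1% with the higher level in naive B cells, and the median log2 fold change was 0.03. Of the 7 genes, 6 were tested, 2 were higher in GC, 3 were higher in naive B cells and 1 did not pass. The pools of the populations did not overlap for the same 5, against 70.7% of all genes tested. The count of 5 in 6 therefore stands against a background in which most genes differ, and it is the size and direction of single differences that the values below describe.

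The markers of the sort followed the labels. All 6 GC markers, among them Fas, Bcl6 and S1pr2, were higher in GC and all 5 naive markers with a value, among them Fcer2a, Ccr7 and Klf2, were higher in naive B cells. The FPKM steps of weakly expressed genes gave a depth of about 9900000 to 16200000 reads per pool, with 63.4% to 69.5% of the low values within 0.1 of a whole number of reads, so that these depths are approximate. T cell, stromal and myeloid markers were low, with sums of at most 3.51, 0.0969 and 7.87 TPM per pool. The 6 intestinal epithelial markers summed to between 22.2 and 38.0 TPM over the GC pools and between 47.7 and 76.1 TPM in the naive pools. Of the 5 of these that were tested, 3 were higher in naive B cells, 1 was higher in GC B cells and 1 did not pass, and none of the 6 was listed at 0 in any pool.

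Promoter sequences are shown first for Dnmt1 and Uhrf1, the genes that rose, and for Tet2, the gene with the largest decrease. Each covers 250 bases before to 50 bases after a transcript start in RefSeq (GRCm38.p6), written 5′ to 3′ on the strand of the gene. For Dnmt1 (3 annotated starts) and Uhrf1 (2 annotated starts) the window with an E2F match was chosen after all windows had been searched, and the data do not show which start was used. Capitals mark E2F letters (TTTCCCGC, TTTCGCGC, TTTGCCGC or TTTGGCGC) and the CCAAT box (CCAAT), on either strand.
Dnmt1, chr9:20952574-20952873, minus strand: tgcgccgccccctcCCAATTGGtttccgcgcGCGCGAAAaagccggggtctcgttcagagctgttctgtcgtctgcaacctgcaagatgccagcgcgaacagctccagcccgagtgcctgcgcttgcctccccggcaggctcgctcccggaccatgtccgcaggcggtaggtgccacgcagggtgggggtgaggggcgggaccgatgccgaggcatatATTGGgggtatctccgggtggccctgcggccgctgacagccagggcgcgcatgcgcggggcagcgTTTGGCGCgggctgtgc
Uhrf1, chr17:56304063-56304362, plus strand: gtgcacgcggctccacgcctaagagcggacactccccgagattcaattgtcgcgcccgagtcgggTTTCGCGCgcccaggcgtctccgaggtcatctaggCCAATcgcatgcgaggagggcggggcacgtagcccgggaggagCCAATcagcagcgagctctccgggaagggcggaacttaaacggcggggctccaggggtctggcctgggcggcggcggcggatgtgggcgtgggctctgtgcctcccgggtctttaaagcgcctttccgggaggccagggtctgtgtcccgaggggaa
Tet2, chr3:133544341-133544640, minus strand: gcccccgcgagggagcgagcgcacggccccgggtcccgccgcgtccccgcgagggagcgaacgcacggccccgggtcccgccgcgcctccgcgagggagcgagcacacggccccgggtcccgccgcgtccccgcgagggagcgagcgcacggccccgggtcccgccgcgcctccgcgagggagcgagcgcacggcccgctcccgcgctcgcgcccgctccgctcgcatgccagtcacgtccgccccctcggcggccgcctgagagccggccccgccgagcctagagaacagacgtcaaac

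E2F proteins switch on genes of DNA replication, and the CCAAT box is common in promoters of cell cycle genes. The Dnmt1 window held 2 E2F matches, beginning 219 bases before and 34 bases after its own start. The Uhrf1 window held 1, beginning 185 bases before its own start. The other Dnmt1 windows, at 20952930 to 20953229 and 20959839 to 20960138, lie upstream on the minus strand and held no E2F match. The Dnmt1 window shown is thus inside the gene as read from those starts. The Uhrf1 window shown also lies downstream of the other Uhrf1 start, whose window held no E2F match. An E2F match was present in 2.27% of all 32851 RefSeq windows of this length, and in 2 of the 12 windows of the 7 genes. That share covers windows of any CpG content, and the share among windows as rich in CpG as those shown was not computed. Some Dnmt3a windows overlap each other, so the 12 are not all separate. CCAAT was found 3 times in the Dnmt1 window, of which 2 matches overlap on opposite strands, and 2 times in the Uhrf1 window, against 37.4% of all windows with at least 1. The other windows of these genes had 5 CCAAT at 1 start of Dnmt1 and 3 at the other start of Uhrf1. Neither motif was in the Tet2, Dnmt3a, Dnmt3b or Tet1 windows, and Tet3 had 1 CCAAT. The CHR letters (TTTGAA, on either strand, in 17.9% of all windows) were found 1 time each in another Dnmt1 window and in the Dnmt3b window. All matches are descriptions of letters, not of bound sites.

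The windows also differed in CpG, the substrate of these enzymes. The Tet2 window had 57 CpG in 300 bases, more than 99.85% of the RefSeq windows. The Dnmt1 and Uhrf1 windows shown had 33 each, whereas the other Dnmt1 windows had 2 and 12 and the other Uhrf1 window had 12. The Dnmt3b window had 30, the Tet3 window 22 and the Tet1 window 17, and the 3 Dnmt3a windows had between 18 and 47. The median of all windows was 7. DNA methylation itself was not measured in these samples.

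Dnmt1 (ENSMUSG00000004099, chromosome 9, 20907206 to 20959888 in GRCm38.p6), the maintenance methyltransferase, measured 259, 267 and 280 TPM in replicates 1, 2 and 3 of the GC pools. It was at 42.5, 43.7 and 40.4 TPM in the naive replicates. The lowest GC pool was thus far above the highest naive pool, and the spread within each population was small, with 269 ± 10.2 TPM in GC against 42.2 ± 1.70 TPM in naive B cells (SD, n = 3 pools each). The log2 fold change was 2.64 (SE 0.05, 95% interval 2.52 to 2.77, adjusted p = 2.4e-07 in limma). Only a small part of the genes tested differed more, since 94.5% had a smaller absolute log2 fold change. By level, Dnmt1 was above 96.1% of the genes tested in GC and above 71.9% in naive B cells, so that it was well expressed also in resting cells.

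Uhrf1 (ENSMUSG00000001228, chromosome 17, 56303337 to 56323486) encodes the protein that recognizes hemimethylated CpG and brings DNMT1 to it. Its values were 267, 267 and 277 TPM over the GC pools and 8.94, 7.01 and 6.15 TPM in the naive pools. The populations were separated without overlap, at 270.5 ± 5.96 TPM in GC against 7.36 ± 1.43 TPM in naive B cells (SD, n = 3 each). The log2 fold change was 5.03 (SE 0.12, interval 4.74 to 5.33, adjusted p = 3.88e-07 in limma), above that of 99.3% of the genes tested in absolute size. In GC B cells its level was that of Dnmt1, with overlapping pools, while in naive B cells Dnmt1 was higher in all 3 pools.

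The difference in behavior of the pair is seen in their ratio within a pool. Uhrf1 divided by Dnmt1 was 1.03, 0.999 and 0.992 in the GC pools and 0.210, 0.160 and 0.152 in the naive pools. The ratio was therefore 5.84 times higher in GC B cells (log2 difference 2.55, exact two-sided permutation test, p = 0.1), and no GC pool overlapped a naive pool. A comparison of 3 with 3 pools cannot give a p below 0.1, and 6 ratios were compared, for which the adjusted p of this ratio was 0.12. Among naive pools, Uhrf1 had a coefficient of variation of 19.4%, and Dnmt1 one of 4.02%.

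**Figure D1:**
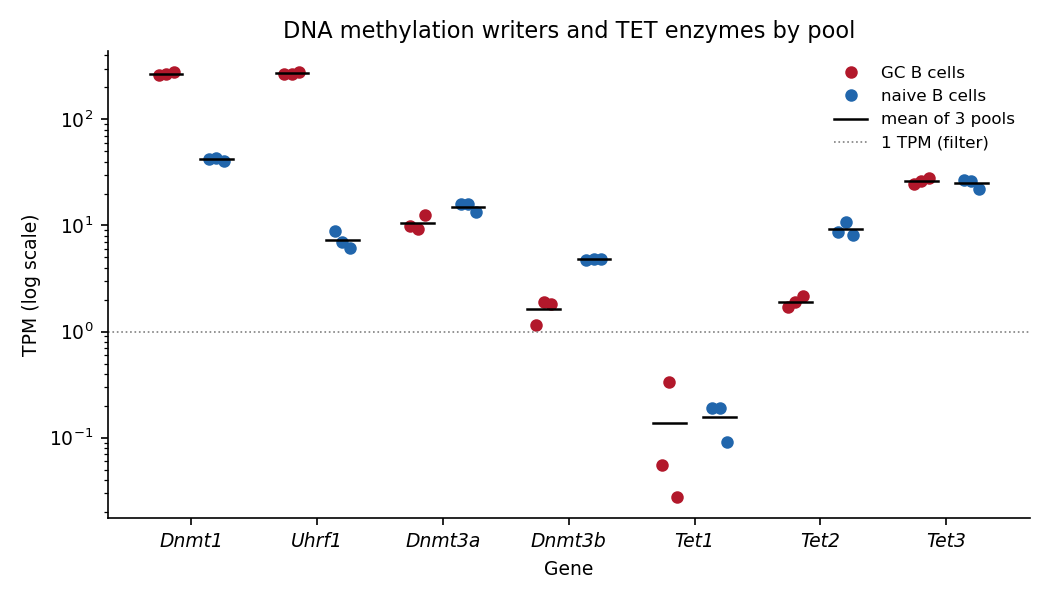
TPM of the 7 genes on a log scale, with a point for each pool (red, GC; blue, naive), a black line at the mean of 3 pools and a dotted line at 1 TPM. Dnmt1 and Uhrf1 lie near 270 TPM in GC B cells, Tet3 has similar values in both populations, and Tet1 stays under 1 TPM in every pool.

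Among the de novo enzymes, Dnmt3b (ENSMUSG00000027478, chromosome 2, 153649411 to 153687730) was the lower in level and showed the larger difference. It was at 1.14, 1.88 and 1.83 TPM over the GC pools and at 4.73, 4.86 and 4.80 TPM in the naive pools. All naive pools were above all GC pools, with means of 4.80 ± 0.0671 TPM in naive and 1.62 ± 0.411 TPM in GC B cells (SD, n = 3 each). Its log2 fold change was -1.16 (SE 0.15, interval -1.52 to -0.80, adjusted p = 0.000605 in limma). With the longest annotated transcript and the approximate depth, the GC values rested on roughly 37.8 to 55.8 reads per pool, so that they were measured less precisely than the values of Dnmt1, which rested on about 1570 reads or more in every pool.

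Dnmt3a (ENSMUSG00000020661, chromosome 12, 3801559 to 3914443), the other de novo enzyme, was at 9.94, 9.22 and 12.6 TPM over the GC pools and at 15.8, 16.0 and 13.3 TPM in the naive pools. The highest GC pool and the lowest naive pool lay close together, although the populations did not overlap. The means were 10.6 ± 1.81 TPM in GC against 15.0 ± 1.48 TPM in naive B cells (SD, n = 3 each), and the log2 fold change was -0.47 (SE 0.14, interval -0.81 to -0.14, adjusted p = 0.0211 in limma). A difference of this size or larger was common, since 45.1% of the genes tested had a smaller absolute change. The call was lost without GC replicate 1 (log2 fold change -0.44, adjusted p = 0.0653 in limma), without GC replicate 2 (-0.39, 0.064), without naive replicate 1 (-0.44, 0.0653) and without naive replicate 2 (-0.43, 0.0686). It was also lost when the replicate number was added as a block (-0.47, adjusted p = 0.0582).

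Dnmt3a was above Dnmt3b in all 6 pools. The ratio of Dnmt3a to Dnmt3b was 8.69, 4.90 and 6.92 in the GC pools and 3.34, 3.29 and 2.78 in the naive pools, 2.13 times higher in GC B cells and without overlap (exact permutation test, p = 0.1, adjusted p = 0.12). Dnmt3l, the catalytically inactive relative that assists DNMT3A and DNMT3B in germ cells, was at 0.189 ± 0.0630 TPM in GC against 0.933 ± 0.347 TPM in naive B cells (SD, n = 3 each) and was not tested because it did not reach 1 TPM in 3 pools.

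The balance of Dnmt1 against the de novo genes shifted strongly, mostly through Dnmt1 itself. Dnmt1 was 6.37 times higher in GC B cells, whereas Dnmt3a and Dnmt3b were 1.42 and 2.97 times higher in naive B cells. Dnmt1 divided by the sum of Dnmt3a and Dnmt3b was 23.4, 24.1 and 19.3 in the GC pools and 2.07, 2.10 and 2.22 in the naive pools. This was 10.4 times higher in GC B cells (log2 difference 3.38, exact permutation test, p = 0.1, adjusted p = 0.12), with no overlap between populations. Of the summed TPM of the 3 methyltransferases, Dnmt1 made up 95.7% ± 0.509 in GC and 68.1% ± 0.828 in naive B cells (SD, n = 3 each). Dnmt3a made up 3.76% ± 0.498 and 24.2% ± 1.23, and Dnmt3b made up 0.574% ± 0.134 and 7.75% ± 0.403, in the same order.

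The TET enzymes differed from each other in level. Tet2 passed the test, Tet3 did not, and Tet1 was not tested. Tet2 (ENSMUSG00000040943, chromosome 3, 133463677 to 133545136), a TET enzyme whose protein lacks the CXXC domain that binds unmethylated CpG, was at 1.69, 1.88 and 2.16 TPM over the GC pools. It was at 8.68, 10.8 and 8.16 TPM in the naive pools, so that the lowest naive pool was above the highest GC pool by several times the spread within the GC pools. The means were 1.91 ± 0.234 TPM in GC against 9.21 ± 1.40 TPM in naive B cells (SD, n = 3 each). The log2 fold change was -1.80 (SE 0.14, interval -2.14 to -1.47, adjusted p = 5.39e-05 in limma), larger in absolute size than that of 88.5% of the genes tested.

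Tet3 (ENSMUSG00000034832, chromosome 6, 83362373 to 83457208) was the most abundant TET gene in both populations. It was at 24.8, 26.2 and 27.8 TPM over the GC pools and at 26.9, 26.1 and 21.9 TPM in the naive pools, with overlap. The means were 26.3 ± 1.55 TPM in GC against 25 ± 2.69 TPM in naive B cells (SD, n = 3 each). The log2 fold change was 0.07 (SE 0.10, interval -0.16 to 0.31, adjusted p = 0.542 in limma), and it was -0.02 without naive replicate 3. The interval leaves room for a difference of up to about 0.31 on the log2 scale in favor of GC B cells.

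Tet1 (ENSMUSG00000047146, chromosome 10, 62804570 to 62887469), which is highly expressed in embryonic stem cells, was at 0.0551, 0.332 and 0.0279 TPM over the GC pools and at 0.189, 0.192 and 0.0904 TPM in the naive pools. The deposited FPKM values of Tet1 lay between 0.02 and 0.24 and were rounded to 0.01, and they rested on roughly 2.81 to 33.7 reads per pool. GC replicate 2 was above all other pools and GC replicates 1 and 3 were below them. Tet1 was not tested, because no pool reached 1 TPM. Without the filter, its log2 fold change was -0.03 (SE 0.11, adjusted p = 0.845 in limma over 20845 genes), a scale on which the added 1 hides nearly any difference at such levels.

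Tet3 divided by Tet2 was 14.6, 13.9 and 12.9 in the GC pools and 3.10, 2.42 and 2.69 in the naive pools, without overlap and 5.06 times higher in GC B cells (exact permutation test, p = 0.1, adjusted p = 0.12). The ratio of Tet1 to Tet2 overlapped between populations (exact permutation test, p = 0.3, adjusted p = 0.3). Tet3 made up 92.8% ± 0.600 of the summed TET TPM in GC and 72.8% ± 2.43 in naive B cells, and Tet2 made up 6.74% ± 0.409 and 26.8% ± 2.44 (SD, n = 3 each). The sum itself was 28.3 ± 1.77 TPM in GC against 34.4 ± 3.68 TPM in naive B cells. The lowest naive pool, with 30.2 TPM, was barely above the highest GC pool, with 30.0 TPM.

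**Figure D2:**
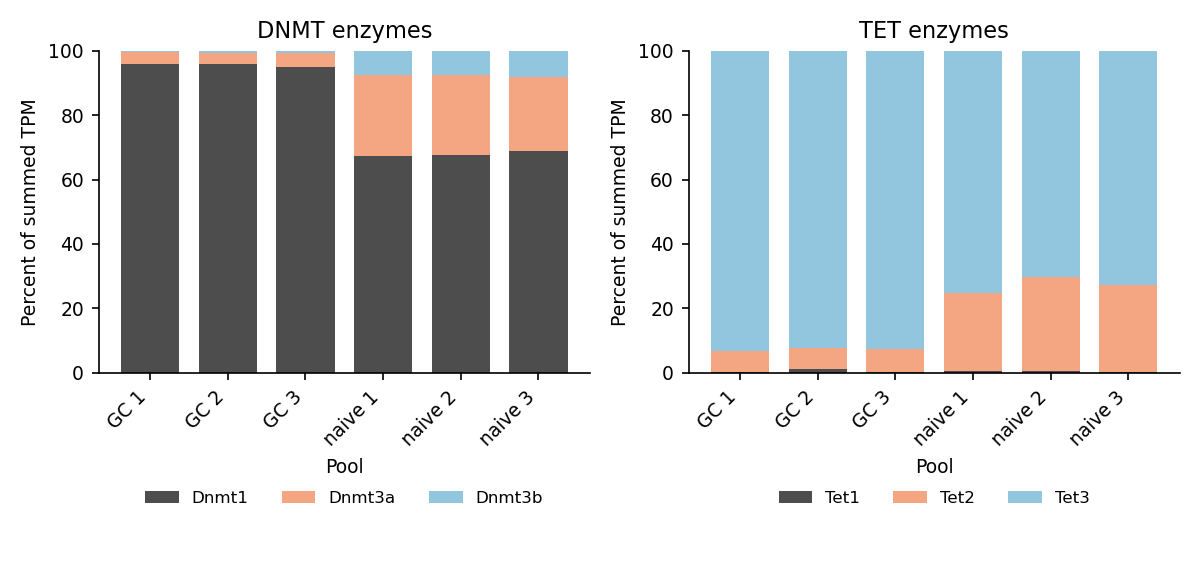
Share of each gene in the summed TPM of the 3 DNMT genes (left) and of the 3 TET genes (right), in percent, as a stacked bar for each pool. Dnmt1 fills 95.1% to 96.0% of the bars of the GC pools and 67.4% to 69.0% of those of the naive pools, and Tet2 takes 24.2% to 29.1% in the naive pools and 6.40% to 7.19% in the GC pools.

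Writers and oxidizing enzymes were also compared with each other. The summed TPM of Dnmt1, Dnmt3a and Dnmt3b was 281 ± 12.0 in GC and 62.0 ± 3.15 in naive B cells (SD, n = 3 each). Divided by the sum of the TET genes, this was 10.2, 9.80 and 9.79 in the GC pools and 1.76, 1.74 and 1.94 in the naive pools, 5.49 times higher in GC B cells (exact permutation test, p = 0.1, adjusted p = 0.12) and without overlap. Of the 3 writers in this sum, Dnmt1 was the one that was higher in GC B cells. In bulk samples, fewer cells of a type that express a gene and less RNA per cell cannot be told apart, and transcript levels do not give the amount or activity of the enzymes.

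**Figure D3:**
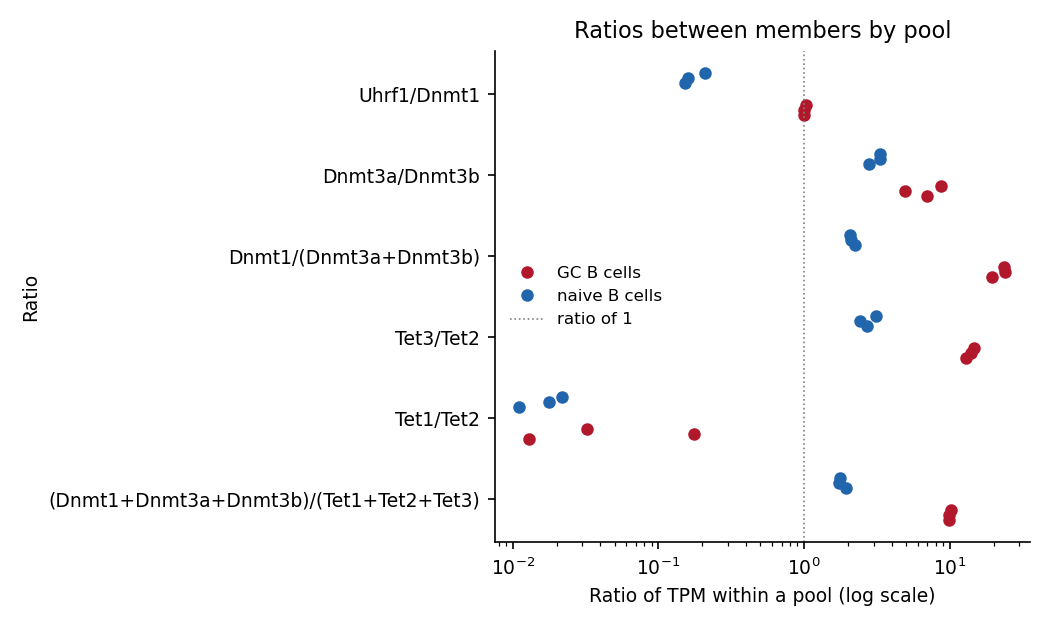
Ratios of TPM within each pool on a log scale, with a point for each of 3 GC pools (red) and 3 naive pools (blue) and a dotted line at a ratio of 1. In 5 of the 6 ratios the populations do not overlap, the exception being Tet1 to Tet2, and Uhrf1 to Dnmt1 is close to 1 in the GC pools.

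The order of levels in GC B cells was Uhrf1, Dnmt1, Tet3, Dnmt3a, Tet2, Dnmt3b and Tet1. Uhrf1 and Dnmt1 overlapped between pools, as did Tet2 and Dnmt3b, and the other neighbors did not. In naive B cells the order was Dnmt1, Tet3, Dnmt3a, Tet2, Uhrf1, Dnmt3b and Tet1, with overlap only between Tet2 and Uhrf1, where Tet2 was the higher in 2 of 3 pools. Uhrf1 thus moved from the fifth place to a shared first place.

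**Figure D4:**
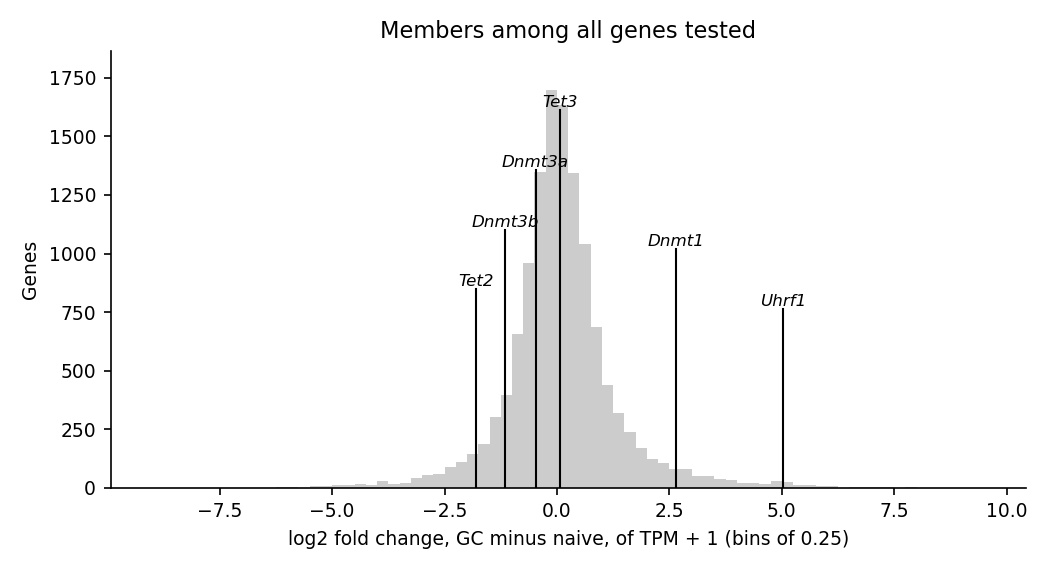
Log2 fold change between GC and naive B cells on the log2(TPM + 1) scale for all 12785 genes tested, in bins of 0.25, with black lines at the 6 genes tested. Uhrf1 at 5.03 and Dnmt1 at 2.64 lie in the right tail, Tet2 at -1.80 and Dnmt3b at -1.16 to the left of the bulk, and Dnmt3a and Tet3 within it.

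The rise of Dnmt1 and Uhrf1 came with that of proliferation genes, whose part in it was not tested. All 9 proliferation genes were higher in GC B cells, against 35.5% of all genes tested. Their summed level was between 1692 and 1741 TPM over the GC pools and between 63.9 and 69.4 TPM in the naive pools. Mki67, a marker of cycling cells, was at 228 ± 1.04 TPM in GC against 0.785 ± 0.107 TPM in naive B cells, Top2a, the topoisomerase of mitotic chromosomes, at 408 ± 15.4 and 4.50 ± 0.570, and Cdk1, the kinase of mitotic entry, at 147 ± 2.12 and 0.598 ± 0.314 (SD, n = 3 each). Their log2 fold changes were 7.01, 6.22 and 6.55. The replication helicase genes Mcm2 and Mcm5, named after their values were seen, differed least within this list, by 2.94 and 3.17. The median of the list was 5.96, and Dnmt1 differed by 2.64.

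Partners of maintenance methylation mostly rose as well. Of 12 genes, 10 were higher in GC, 1 was higher in naive B cells and 1 did not pass. Over all genes tested, 35.5% were higher in GC and 30.1% in naive B cells. The median log2 fold change of the list was 1.75, beside 0.03 over all genes tested. Pclaf, which encodes a PCNA-associated factor that is ubiquitinated by UHRF1, was at 413.5 ± 9.99 TPM in GC against 2.17 ± 0.249 TPM in naive B cells (log2 fold change 7.03, adjusted p = 5.28e-08 in limma). Hells, a chromatin remodeler needed for normal DNA methylation, was at 94.4 ± 9.38 and 5.18 ± 1.24 TPM (3.97, adjusted p = 3.2e-06 in limma), and Lig1, the ligase of lagging strands, was at 199 ± 9.93 and 17.2 ± 0.654 TPM (3.46, adjusted p = 1.59e-07 in limma). Pcna, the sliding clamp, had the highest level of the list, 642 ± 13.3 TPM in GC against 119.7 ± 1.99 TPM in naive B cells (2.41, adjusted p = 1.14e-07 in limma). The gene higher in naive B cells was Zbtb24, a zinc finger gene linked to loss of methylation at centromeres, at 14.3 ± 1.16 TPM in GC against 21.3 ± 1.08 TPM in naive B cells (-0.55, adjusted p = 0.00152 in limma). Some genes of the list, such as Pcna and Lig1, are at the same time general replication genes.

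Of 7 genes related to de novo methylation, 6 were tested, 3 were higher in GC and 3 did not pass, with a median log2 fold change of 0.09. Among all genes tested, 65.6% passed and 35.5% were higher in GC. Nsd2, which places methylation on lysine 36 of histone H3, stood apart at 89.0 ± 1.78 TPM in GC against 10.0 ± 1.06 TPM in naive B cells (3.03, adjusted p = 6.55e-07 in limma). Nsd3 and Setd2, which act on the same lysine, differed by 0.42 (adjusted p = 0.00377 in limma) and 0.19 (adjusted p = 0.048 in limma).

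Genes listed as methyl-CpG readers were mixed, with 5 of 10 higher in GC, 2 higher in naive B cells and 3 that did not pass. Their median log2 fold change was 0.28, and 35.5% of all genes tested were higher in GC and 30.1% in naive B cells. The list includes the relatives Mbd3, Mbd5 and Mbd6, which are not established binders of methylated CpG. Mbd2, a repressor that recruits the NuRD complex, was the most abundant, at 725 ± 9.97 TPM in GC against 153 ± 6.22 TPM in naive B cells (2.24, adjusted p = 2.23e-07 in limma). Mbd4, a glycosylase that removes thymine mispaired at CpG, was at 142 ± 6.07 and 19.5 ± 1.91 TPM (2.81, adjusted p = 7.34e-07 in limma), and the zinc finger reader Zbtb38 was at 55.8 ± 3.92 and 9.84 ± 1.33 TPM (2.39, adjusted p = 5.41e-06 in limma). Mbd6 and Mbd5 were higher in naive B cells, by -0.69 (adjusted p = 0.0024 in limma) and -0.50 (adjusted p = 0.0463 in limma). Of 8 genes for binders of unmethylated CpG, 7 had a value and 6 were tested, of which 1 was higher in GC, 2 were higher in naive B cells and 3 did not pass (median -0.09). Kmt2a, a methyltransferase for lysine 4 of histone H3, was higher in GC (1.14, adjusted p = 8.91e-05 in limma), and Cxxc5 (-0.64, adjusted p = 0.000109) and Cxxc1 (-0.22, adjusted p = 0.0104) were higher in naive B cells. Kdm2a, the most abundant of this list, did not pass (-0.15, adjusted p = 0.134).

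Downstream of the TET enzymes, oxidized bases are removed by glycosylases. Of 9 genes for the removal of oxidized or deaminated methylcytosine, 8 were tested, 6 were higher in GC and 2 were higher in naive B cells. Their median log2 fold change was 0.71, and 35.5% of all genes tested were higher in GC and 30.1% in naive B cells. Neil1, a glycosylase for oxidized bases, was at 623 ± 16.1 TPM in GC against 23.7 ± 3.90 TPM in naive B cells (4.67, adjusted p = 3.74e-07 in limma). Tdg, the glycosylase that excises the oxidation products made by TET enzymes, differed less, at 58.1 ± 3.61 and 34.0 ± 3.56 TPM (0.76, adjusted p = 0.000392 in limma). The stress genes Gadd45b and Gadd45g differed in opposite directions, Gadd45b by 2.43 (adjusted p = 4.8e-06 in limma) and Gadd45g by -3.81 (adjusted p = 6.2e-07 in limma). Gadd45g fell from 68.3 ± 3.90 TPM in naive to 3.97 ± 0.554 TPM in GC B cells. Smug1, another glycosylase, was also higher in naive B cells (-0.76, adjusted p = 0.000989 in limma).

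Of 8 TET partners, 7 were tested, 4 were higher in GC, 1 was higher in naive B cells and 2 did not pass (median log2 fold change 0.38). Over all genes tested, 65.6% passed, 35.5% with the higher level in GC and 30.1% in naive B cells. Ogt, the transferase of O-linked N-acetylglucosamine that binds TET2 and TET3, was the gene higher in naive B cells, at 163 ± 17.6 TPM against 103 ± 5.33 TPM in GC (-0.65, adjusted p = 0.000743 in limma). Cul4b, a ubiquitin ligase scaffold (1.12, adjusted p = 0.000136), Hcfc1, a chromatin cofactor processed by OGT (0.81, adjusted p = 0.000461), and Sin3a, a corepressor (0.61, adjusted p = 0.000276 in limma), were higher in GC.

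Enzymes that supply the methyl donor and the TET cosubstrate differed in both directions, as did genes at large. Over all genes tested, 35.5% were higher in GC and 30.1% in naive B cells. Of 9 genes of the S-adenosylmethionine cycle, 8 were tested, 3 were higher in each population and 2 did not pass (median log2 fold change -0.12). Ahcy, which removes the inhibitory product of methyl transfer, was at 134 ± 10.9 TPM in GC against 43.0 ± 5.19 TPM in naive B cells (1.63, adjusted p = 2.28e-05 in limma). Mat2a, which makes the methyl donor, differed by only 0.25 (adjusted p = 0.00574 in limma), and Mat2b, its regulatory subunit, by -0.37 (adjusted p = 0.00312 in limma). Mtrr, which keeps methionine synthase active, differed by 0.60 (adjusted p = 0.000718 in limma) and Ahcyl2, a relative of Ahcy, by -0.51 (adjusted p = 0.0314). Of 7 genes for 2-oxoglutarate and 2-hydroxyglutarate, 3 were higher in GC, 2 were higher in naive B cells and 2 did not pass (median 0.19). Idh2, the mitochondrial enzyme that makes 2-oxoglutarate, was at 81.5 ± 5.65 and 19.8 ± 1.35 TPM (1.99, adjusted p = 2.67e-06 in limma). Idh3a and Idh3g, subunits of the NAD-dependent enzyme, differed by 0.91 (adjusted p = 5.85e-05 in limma) and 0.19 (adjusted p = 0.00831). The cytosolic Idh1 was at 7.11 ± 0.352 TPM in GC against 10.5 ± 1.32 TPM in naive B cells (-0.50, adjusted p = 0.00745 in limma), and D2hgdh, which degrades 2-hydroxyglutarate, was at 11.5 ± 1.48 and 20.3 ± 1.44 TPM (-0.77, adjusted p = 0.000996 in limma).

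**Figure D5:**
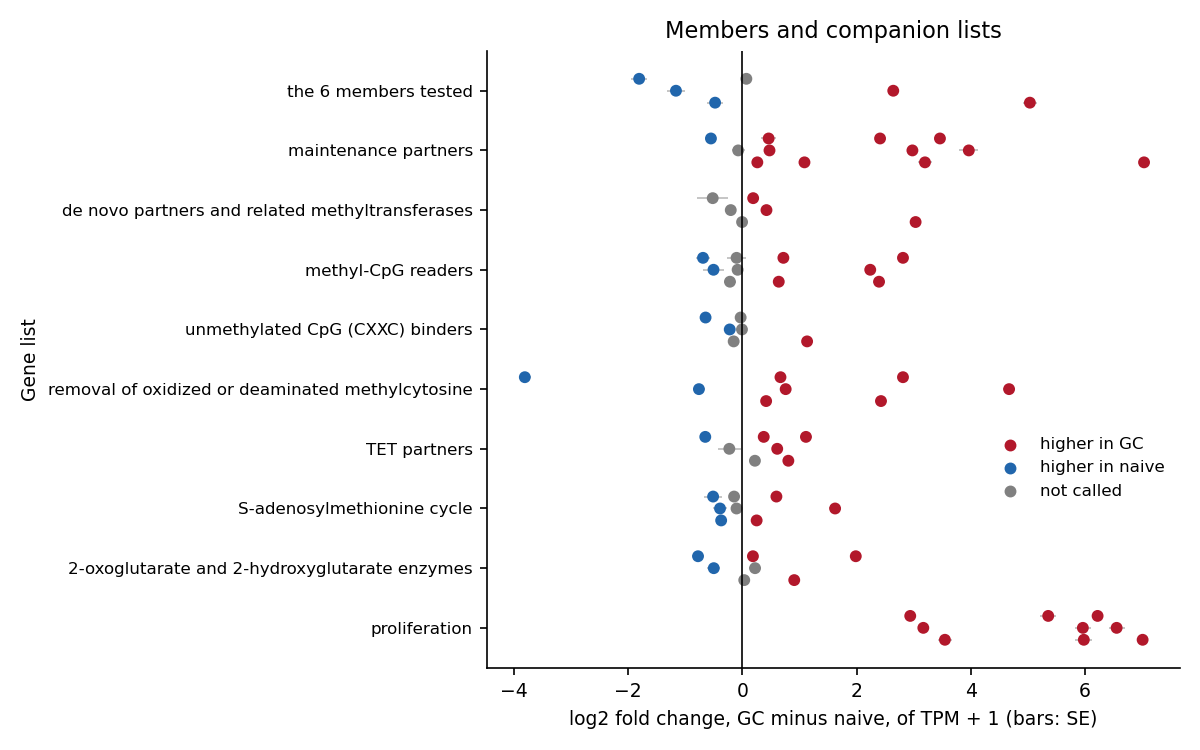
Log2 fold change between GC and naive B cells (x axis, log2(TPM + 1) scale, bars show the SE) for the 6 genes tested and for the genes of 9 related lists (y axis), colored by the limma call at an adjusted p under 0.05. All 9 proliferation genes and 10 of 12 maintenance partners lie to the right, while most other lists have genes on both sides of 0. Mbd4 is in both the reader and the removal list.

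Genes with the most similar profiles were found as the smallest root mean square difference from each gene over the 6 pools, after each gene's mean log2(TPM + 1) had been subtracted. For Dnmt1 these were Xrcc1 (0.034), Bzw2 (0.045) and Slamf7 (0.050), and 26 genes lay within 0.1. For Uhrf1 they were Kif2c (0.064), Atp11a (0.073) and Kif15 (0.115), with only 2 genes within 0.1. For Tet2 they were Bach1 (0.070), Mib2 (0.075) and Itih5 (0.083), with 15 within 0.1, and for Dnmt3b they were Zdhhc18 (0.055), Cdc42se1 (0.072) and Vat1 (0.079), with 17. Near Dnmt3a were Abcg3 (0.034), mt-Nd5 (0.047) and Fdxr (0.051), among 72 genes within 0.1, and near Tet3 were Zmpste24 (0.014), Ormdl2 (0.021) and Gm2382 (0.023), among 558. With 6 pools in 2 populations, such a profile is set almost entirely by the difference between populations. Small distances were therefore common for Tet3 and Dnmt3a, whose differences were near the center of all genes, and rare for Uhrf1. Because of the added 1, genes near the floor can be close on this scale while their TPM ratios differ. Itih5 averaged 0.0416 TPM over the GC pools and 2.74 TPM over the naive pools, beside 1.91 and 9.21 TPM for Tet2. Bach1 was nearer, at 1.96 and 8.71 TPM. Kif2c, Atp11a and Kif15 averaged 0.401, 0.264 and 0.338 TPM over the naive pools, beside 7.36 TPM for Uhrf1.

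The decreases of Tet2, Dnmt3b and Dnmt3a went in the direction of the intestinal epithelial markers, whose summed level was higher in the naive pools. Summed myeloid markers were also higher there, at 4.89 to 7.87 TPM against 2.29 to 2.70 TPM in GC. So were summed plasma cell markers, at 73.8 to 84.2 TPM against 27.5 to 29.0 TPM, a sum made up mostly of Irf4. Irf4 was at 76.4 TPM in naive and 21.7 TPM in GC B cells, and Sdc1 at 3.19 and 1.51 TPM. Prdm1 went the other way, at 0.955 and 5.01 TPM. The sums of T cell, stromal and erythroid markers overlapped between populations. The part of any of these cells in the decreases was not tested. For scale, Krt8, the most abundant of the epithelial markers, was at 23.9 ± 4.78 TPM in naive and 11.9 ± 3.05 TPM in GC B cells (SD, n = 3 each).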

How the data were processed

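RNA-Seq was analysed from 3 GC and 3 naive B cell pools of 5 mice each. The authors demultiplexed reads with CASAVA 1.8, removed adapters with cutadapt 1.9, and used RSEM 1.2.25 with the NCBIm38 v75 mouse transcriptome for alignment and quantification. They deposited FPKM per gene with 2 decimals. Transcripts of a gene are summed, and whether counting used strand is not given in the sources used here. FPKM was rescaled to TPM, and log2(TPM + 1) was tested with limma 3.58.1 in R 4.3.3 (lmFit, eBayes with a trend) after a filter of at least 1 TPM in at least 3 pools. In simulated data with 200 of 12785 genes changed by a log2 of 1, the fit recovered 73.5% of them, and 4.55% of its calls were false. Far fewer genes changed there than were called in the real data, so these rates may not carry over. Depth was estimated from FPKM steps of genes with 1 transcript of 250 to 900 bases in the NCBIM37 annotation, at a tolerance of 0.1 reads. Symbols came from a list of gene names and, where it had none, from RefSeq, together for 33398 of 39179 identifiers. Listed genes were matched by their current RefSeq symbol first, then by the list of gene names or a synonym. Of 78 companion genes, 77 matched. Ratios were tested with exact two-sided permutation tests, adjusted over 6.

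The 7 genes, the gene lists and the markers were chosen with earlier results of these data known. Named were the 7 genes, the 3 nearest profiles of each gene tested, and from each list up to 3 called genes with the largest change in each direction and the gene with the highest mean TPM. Values of some genes that this rule names are not reported here. Mcm2, Mcm5, Dnmt3l and Tdg were named after their values were seen, as was Krt8. Alternatives covered the pseudocount, filters, FPKM as deposited, quantile and median ratio scaling, the trend, a block for the replicate number, and omission of each pool. Replicate numbers are not stated to pair pools. Python 3.11.15 with numpy 2.4.6, pandas 2.3.3, scipy 1.17.1 and matplotlib 3.10.9 was used for other steps.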

Additional observations from a re-analysis of the deposited data

How the results depend on the processing

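Dnmt1, Uhrf1, Dnmt3b and Tet2 kept direction and significance in every alternative that gave a value, with log2 fold changes of 2.55 to 2.67, 4.93 to 5.22, -1.60 to -1.02 and -2.26 to -1.70. Dnmt3b had no value under a filter of at least 5 TPM in at least 3 pools. Dnmt3a ranged from -0.60 to -0.39 and lost its call in 5 of 15 alternatives, named in the report. Tet3 reached 0.127 without naive replicate 1, turned to -0.016 without naive replicate 3 and was not called in any of its 15 alternatives. Between 4 and 5 of the genes were called, and the count over all genes ranged from 7180 to 8639. Of the calls, 54.1% were higher in GC B cells, and 47.8% under quantile normalization. The ratios kept their direction in all alternatives. Tet1 to Tet2 ranged most, from 0.34 to 2.22 in its log2 difference. With the replicate number as a block, 7960 genes were called instead of 8392, 4 of the 6 genes tested kept their call, and only that of Dnmt3a was lost. Correlations of the deviations of same-numbered pools were 0.083, 0.0225 and 0.0456, and those of pools with different numbers lay between -0.0746 and 0.0298. These values neither show nor exclude a pairing. The main fit left it out because the replicate numbers are not stated to pair the pools. The p-values measure the spread between pools, not between mice. Depth limits Tet1 and, in GC B cells, Dnmt3b.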
